A study of Mus musculus with 6 samples.

Results

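Transcripts of 36 genes of double-strand break repair and the replication checkpoint were followed in mouse immature dendritic cells treated with hydrogen peroxide (H2O2). The rule for choosing them is a list of names in 4 roles and sets no threshold on a measured value: 16 of homologous recombination, 7 of the Fanconi pathway, 4 of end joining and 9 of the checkpoint. All 36 had a row, matched through the NCBI Gene number, among the 17567 genes of the count files, and all 36 passed the filter on low counts. The study grew the cells from marrow of male C57BL/6 mice 6 weeks of age, in GM-CSF (20 ng/mL), interleukin-4 (10 ng/mL) and 10% serum, obtained immature cells on day 6 and selected them for CD11c on magnetic beads. Both groups share this wild-type background and culture. The H2O2 group was then given 100 µM H2O2 for 24 h, and the labels call the other group control. Neither the number of mice nor the time the controls spent in culture after selection is given in the sources used here. If the libraries of a group came from shared mice or wells, their spread, and every p below, is technical.

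A double-strand break is mended in one of 2 main ways. Homologous recombination copies the undamaged sister chromatid, so it works in cells that are replicating or have replicated their DNA, and many of its genes are transcribed with the cell cycle. End joining rejoins the ends directly and needs no sister. The Fanconi pathway clears crosslinks between the strands and protects stalled forks. The checkpoint kinases ATM and ATR, which respond to breaks and to single-stranded DNA, act mainly through phosphorylation of proteins that are already present. H2O2 yields oxidized bases and single-strand breaks, which can become double-strand breaks when a replication fork meets them.

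The 6 deposited files held 5 distinct libraries, 3 control and 2 H2O2, since the file of H2O2 replicate 3 matched that of H2O2 replicate 1 in all 17567 values and was counted once. Totals lay between 16232604 and 16672491 estimated counts. The libraries also fell into 2 sets that the treatment does not explain. Transcripts of 4 Y-linked genes summed to 106 and 96.4 counts scaled to the library total (CPM) in control replicate 1 and H2O2 replicate 1 (set A), and to at most 0.427 CPM in control replicates 2 and 3 and H2O2 replicate 2 (set B), although the labels describe male mice only. H2O2 replicate 1 was therefore compared with control replicate 1, and H2O2 replicate 2 with control replicates 2 and 3, in one edgeR quasi-likelihood fit with a term for the set. A gene was called where its p, adjusted by Benjamini-Hochberg over the 12209 genes tested, did not exceed 0.05.

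A share of the recombination, Fanconi and checkpoint transcripts was lower after H2O2, and no end-joining transcript was called. Of the 36 genes 13 fell (36.1%) and 0 rose, against 4.61% of all tested genes called lower and 3.93% called higher. The 13 were Brca1, Bard1, Rad54l, Rad54b, Blm, Rbbp8 and Eme1 of recombination, Brip1, Fancd2 and Fanci of the Fanconi pathway, and Topbp1, Clspn and Timeless of the checkpoint. Their falls ranged from 1.36-fold to 2.90-fold. In 8 of the 36 (22.2%) the fall was called and was at least 1 on the log2 scale, against 1.60% of all tested genes. The median log2 change of the 36 was -0.49 (set A alone -0.54, set B alone -0.50), beside 0.0089 over all tested genes. In bulk RNA, fewer cells that carry a transcript and less transcript per cell cannot be told apart.

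The calls rest on the set term and on few libraries. Without the term edgeR called 0 of the 36 (smallest adjusted p = 0.702), and 5 of them, Brca1, Rad54b, Blm, Rbbp8 and Fanca, were lower at an unadjusted p under 0.05 (13.9%, against 3.19% of all tested genes). With the term, 0 were called without H2O2 replicate 2 (17 lower at an unadjusted p under 0.05, against 10.7% of all genes tested in that fit) and 0 when no filter on low counts was used (smallest adjusted p = 0.0505), while DESeq2 and limma-voom called 13 and 12 lower, of which 11 and 12 were among the 13. Scaling by library totals in place of TMM called 16, but it also moved all tested genes from 563 lower and 480 higher to 910 lower (7.45%) and 384 higher. Seen without any fit, H2O2 lay below every control library of its own set in 30 of the 36 (83.3%), against 28.0% of all tested genes, and below all 3 controls whatever their set in 11 (30.6%), against 10.7%.

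**Figure D1:**
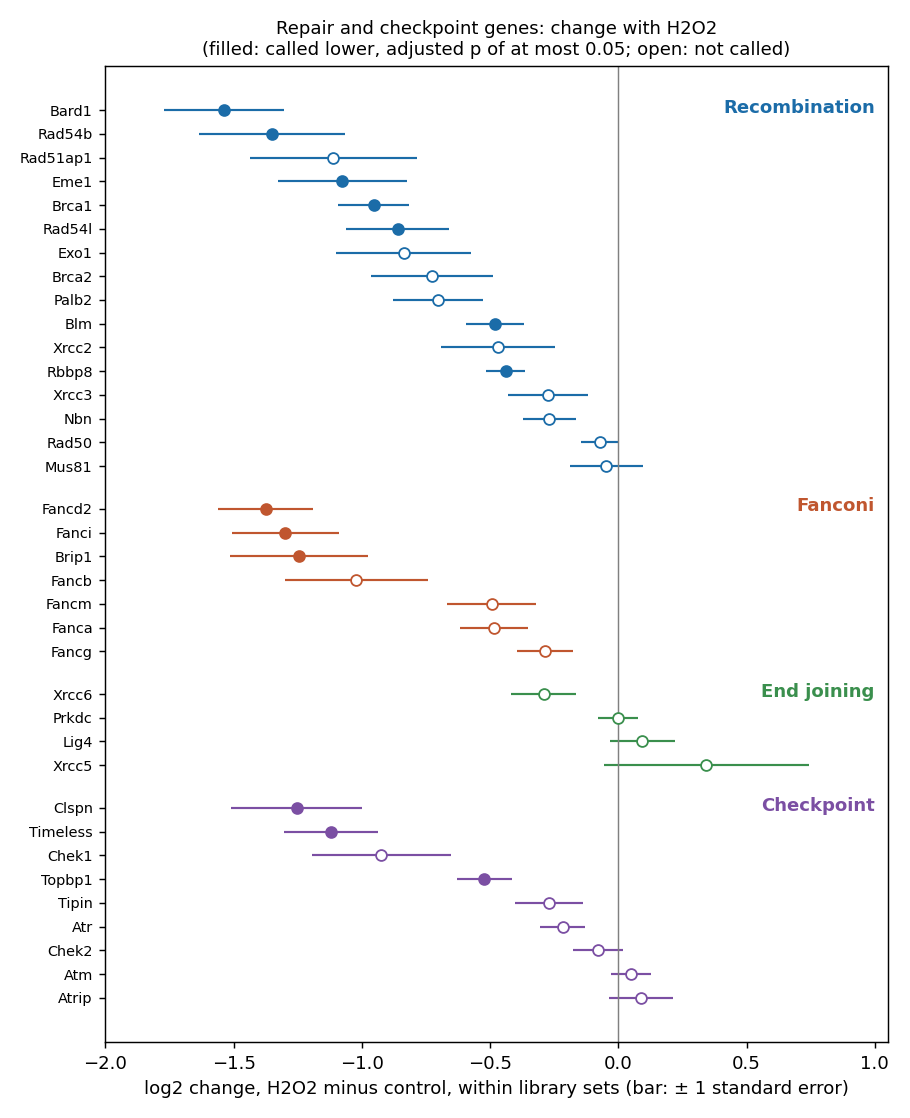
Log2 change with H2O2 (x axis, H2O2 minus control within the library sets) for each of the 36 genes (y axis, grouped by role), with bars of 1 standard error from the edgeR fit. Filled points are the 13 genes called lower, which reach -1.54 at Bard1, and the 4 end-joining genes lie between -0.29 and 0.34.

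Many genes of S phase are controlled at the start of the gene by E2F factors, and those of later phases by the cell cycle homology region (CHR) and the CCAAT box bound by NF-Y. Stretches of 250 bases before a RefSeq start (build GRCm38.p6) are shown, so that promoters of called and uncalled genes can be read together. They belong to the 4 called genes of lowest p with an entry. Atm and Chek2, the 2 genes with an entry that changed least among those averaging 10 CPM or more, are shown too. Each is printed 5′ to 3′ on the strand of its gene. Capitals mark an E2F motif (TTTCCCGC, TTTGGCGC, TTTCGCGC or TTTGCCGC), a CHR (TTTGAA or TTCGAA) or a CCAAT box (CCAAT), on either strand, and no 2 of the marked motifs overlap.
Brca1, chr11:101551956-101552205, minus strand: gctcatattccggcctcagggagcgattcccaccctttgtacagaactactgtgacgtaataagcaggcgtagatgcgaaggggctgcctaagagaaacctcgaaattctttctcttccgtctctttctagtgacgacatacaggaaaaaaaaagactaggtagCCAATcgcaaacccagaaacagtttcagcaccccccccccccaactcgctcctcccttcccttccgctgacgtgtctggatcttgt
Bard1, chr1:71102973-71103222, minus strand: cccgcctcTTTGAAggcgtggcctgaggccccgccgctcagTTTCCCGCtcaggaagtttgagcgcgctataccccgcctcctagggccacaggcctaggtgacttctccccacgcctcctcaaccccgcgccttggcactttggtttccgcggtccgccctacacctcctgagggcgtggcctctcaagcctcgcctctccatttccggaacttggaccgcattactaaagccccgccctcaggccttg
Fanci, chr7:79392088-79392337, plus strand: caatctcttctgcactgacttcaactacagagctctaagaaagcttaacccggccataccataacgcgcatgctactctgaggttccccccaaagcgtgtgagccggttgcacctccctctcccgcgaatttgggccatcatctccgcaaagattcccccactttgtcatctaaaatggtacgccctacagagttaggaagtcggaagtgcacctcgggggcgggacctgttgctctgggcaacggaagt
Timeless, chr10:128237816-128238065, plus strand: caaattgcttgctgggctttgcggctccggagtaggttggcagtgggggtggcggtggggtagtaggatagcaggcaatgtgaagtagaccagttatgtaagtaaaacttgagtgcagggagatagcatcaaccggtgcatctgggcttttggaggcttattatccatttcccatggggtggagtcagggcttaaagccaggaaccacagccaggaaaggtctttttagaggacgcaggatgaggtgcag
Atm, chr9:53536672-53536921, minus strand: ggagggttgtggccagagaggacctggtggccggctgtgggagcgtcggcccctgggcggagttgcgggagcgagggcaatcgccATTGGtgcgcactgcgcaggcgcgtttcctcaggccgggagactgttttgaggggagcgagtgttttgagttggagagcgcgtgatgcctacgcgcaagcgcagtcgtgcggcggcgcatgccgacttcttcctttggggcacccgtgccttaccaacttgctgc
Chek2, chr5:110839733-110839982, plus strand: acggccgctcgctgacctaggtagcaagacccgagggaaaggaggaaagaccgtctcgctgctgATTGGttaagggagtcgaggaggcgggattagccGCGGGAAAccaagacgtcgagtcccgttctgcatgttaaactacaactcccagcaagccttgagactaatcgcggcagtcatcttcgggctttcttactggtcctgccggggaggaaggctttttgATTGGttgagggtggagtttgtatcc

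In these 6 windows the motifs did not separate called from uncalled genes. Bard1, which fell, held an E2F motif and a CHR, while Fanci, which fell as well, held none of the 3 motifs in its window. The window of Timeless, also called, held none either, but it lies inside the annotated gene, which starts at base 128232063. The bases before that outer start were not read. Chek2, which was not called, held an E2F motif and 2 CCAAT boxes. RefSeq promoters of 300 bases (250 before the start and 50 after it) were at hand for 27 of the 36 genes. Those without were Rad54b, Exo1, Nbn, Xrcc2, Fancd2, Tipin, Rad50, Prkdc and Rbbp8. A listed start can lie well inside the annotated gene, as for Xrcc6, Timeless and Fancm. In these the bases before the outer start were not read, so the shares below cover the listed starts only. An E2F motif stood in 7 of the 27 (25.9%), against 2.26% of all 32851 promoters of that length and 4.75% of 9868 tested genes. The 7 were Bard1, Clspn and Topbp1 among the 10 called genes and Fancg, Chek2, Brca2 and Xrcc6 among the other 17. A CCAAT box stood in 16 of the 27 (59.3%, against 37.4% of all promoters and 43.5% of tested genes), in 5 of the 10 called genes and 11 of the other 17. A CHR stood in 3 (11.1%, against 19.2% and 17.1%). A match describes the letters only.

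Among the recombination genes 7 of 16 fell and none rose, and all 16 had a log2 change below 0, with a median of -0.72. Over all tested genes 4.61% were called lower and 48.4% had a log2 change below 0. Bard1 and Brca1 encode both subunits of the ubiquitin ligase that steers breaks into recombination. Bard1 stood at 15.1 CPM in control replicate 1 but 5.26 CPM in H2O2 replicate 1, and in set B at 5.44 and 8.72 CPM in control replicates 2 and 3 and 2.40 CPM in H2O2 replicate 2. Both H2O2 libraries lay below all 3 controls, though the controls themselves spread widely. The fall was 2.90-fold, the largest of the 36 (log2 -1.54 ± 0.24 SE, adjusted p = 0.0215). Brca1 stood at 40.9 CPM in control replicate 1 against 22.1 CPM in H2O2 replicate 1, and at 30.9 and 40.9 CPM in control replicates 2 and 3 but 17.9 CPM in H2O2 replicate 2. The groups did not overlap, and the fall was 1.94-fold (log2 -0.95 ± 0.14, adjusted p = 0.0202).

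The partners that act after Brca1 were not called. Palb2, the bridge to Brca2, stood at log2 -0.70 ± 0.18 (adjusted p = 0.0563), and Brca2, which acts in strand exchange, at -0.73 ± 0.24 (adjusted p = 0.108). Brca2 ran at 31.3 CPM in control replicate 1 but 15.2 CPM with H2O2 in set A, but in set B at 10.8 and 17.99 CPM in controls and 10.6 CPM in H2O2. H2O2 replicate 2 thus almost met control replicate 2. Xrcc2 and Xrcc3, which also act in strand exchange, stood at -0.47 ± 0.22 and -0.28 ± 0.16, neither called.

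Helpers of strand exchange were lower too. Rad54l encodes a motor that drives strand invasion, and Rad54b a close relative of it. Rad54l fell 1.82-fold (log2 -0.86 ± 0.20, adjusted p = 0.0480), from 28.5 to 16.3 CPM in set A and from 10.9 and 17.3 to 7.51 CPM in set B. Control replicate 2 lay below H2O2 replicate 1, so the groups separated only within the sets. Rad54b, a scarce transcript, fell 2.55-fold (log2 -1.35 ± 0.28, adjusted p = 0.0363), from 5.35 to 2.37 CPM and from 3.69 and 6.04 to 1.68 CPM, with no overlap between the groups. Rad51ap1, which helps joint molecules form, stood at -1.11 ± 0.33 (adjusted p = 0.0819), not called. DESeq2 did call it (adjusted p = 0.0102), as did edgeR with a replicate block (0.0383) and without control replicate 2 (0.0247), while the other alternatives gave an adjusted p between 0.0548 and 0.78.

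Resection, which trims the ends, divided by gene. Rbbp8 encodes CtIP, which starts resection. It stood at 71.0 CPM in control replicate 1 but 56.0 CPM in H2O2 replicate 1, and at 81.3 and 80.5 CPM in control replicates 2 and 3 but 56.7 CPM in H2O2 replicate 2. The fall was small, 1.36-fold (log2 -0.44 ± 0.076, adjusted p = 0.0251), without overlap, at -0.34 in set A and -0.51 in set B. Rad50 and Nbn, subunits of the complex that holds broken ends, were not called, at -0.07 ± 0.071 and -0.27 ± 0.10. Rad50 ran between 45.3 and 52.7 CPM in all 5 libraries. The long-range nuclease gene Exo1 stood at -0.84 ± 0.26 (adjusted p = 0.0966).

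Of the genes that undo joined intermediates, the helicase gene Blm fell 1.40-fold (log2 -0.48 ± 0.11, adjusted p = 0.0482), from 28.3 to 19.4 CPM in set A and from 24.6 and 29.3 to 19.9 CPM in set B. Its groups did not overlap, and its call was the nearest to the threshold. Eme1 and Mus81 encode the 2 subunits of one nuclease and parted. Eme1 fell 2.11-fold (log2 -1.08 ± 0.25, adjusted p = 0.0471), from 8.14 to 3.43 CPM and from 2.42 and 3.72 to 1.68 CPM. Mus81 stayed between 8.76 and 10.9 CPM in all libraries (log2 -0.05 ± 0.14, adjusted p = 0.865). The difference between the subunits was not tested.

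**Figure D2:**
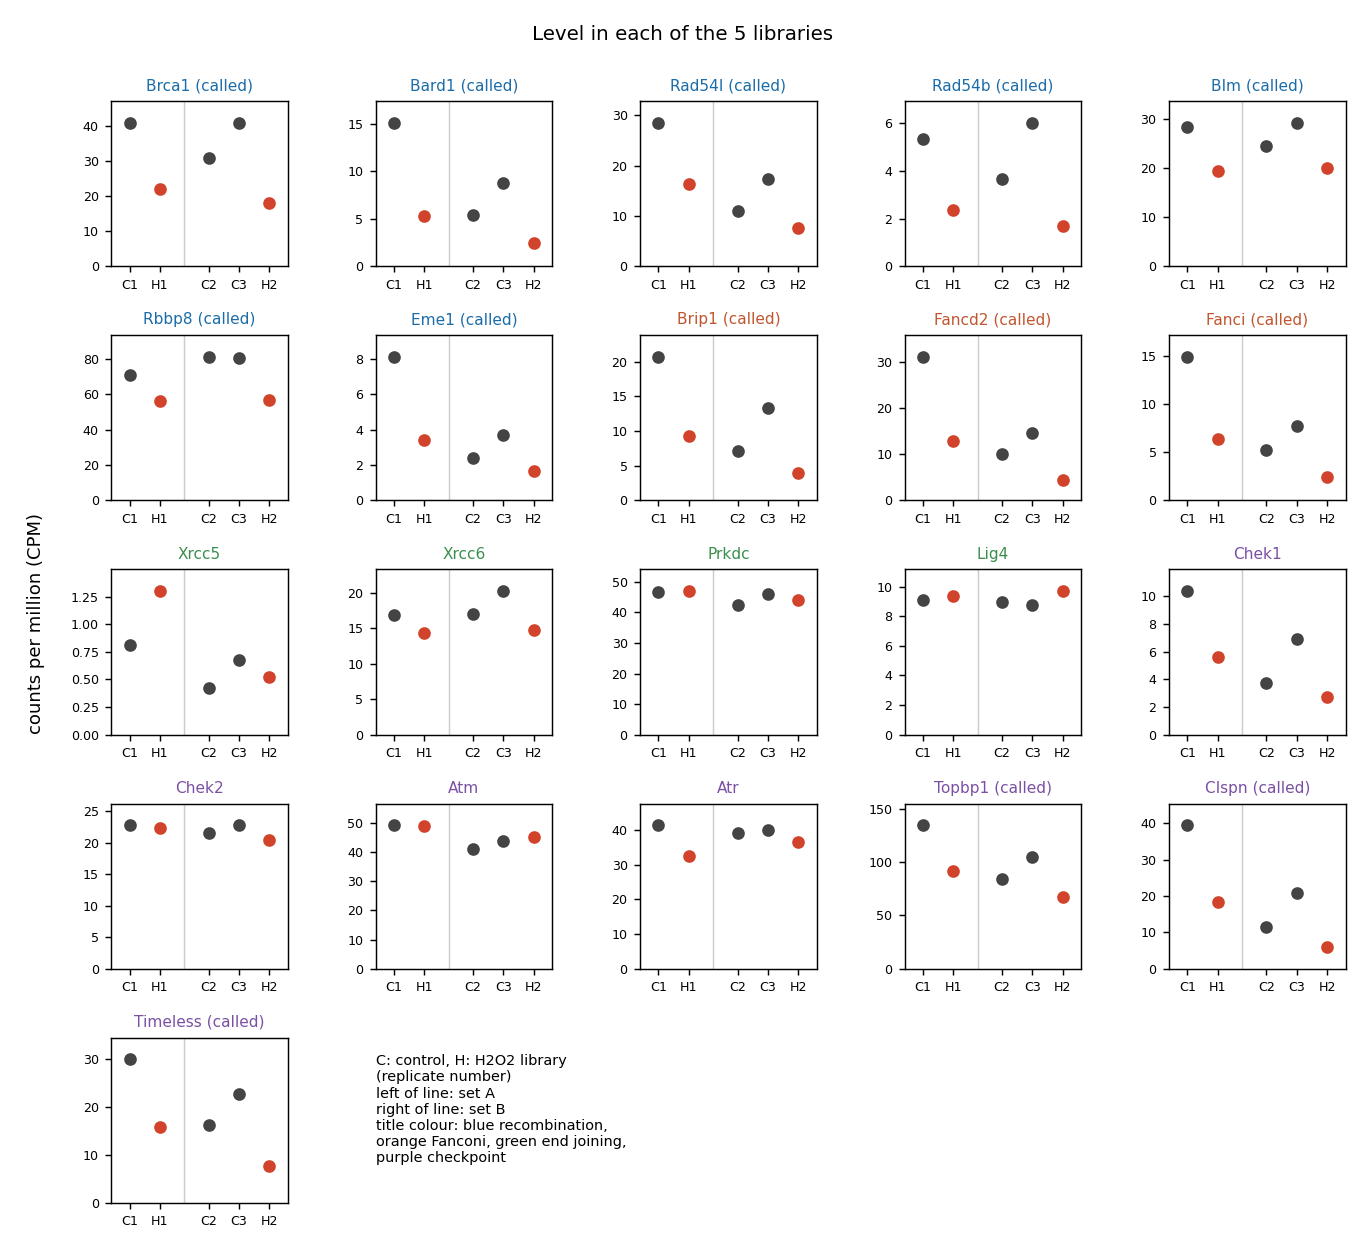
Level in CPM (y axis, each panel from 0) in each library (x axis, C for control and H for H2O2 with the replicate number) for the 13 called genes and 8 end-joining and kinase genes. In all 13 called genes the H2O2 library lies below every control of its own set, while the groups overlap in Prkdc and Atm.

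In the Fanconi pathway 3 of 7 genes fell, none rose, and all 7 had a log2 change below 0 (median -1.02). The shares over all tested genes were 4.61% called lower and 48.4% below 0. Of the 3, Fancd2 and Fanci encode the pair that is clamped onto DNA at a crosslink, and Brip1 a helicase that binds Brca1. Fancd2 stood at 31.1 CPM in control replicate 1 but 12.8 CPM in H2O2 replicate 1, and at 10.1 and 14.6 CPM in control replicates 2 and 3 but 4.41 CPM in H2O2 replicate 2. Its fall of 2.59-fold had the lowest adjusted p of the 36 (log2 -1.38 ± 0.19, adjusted p = 0.0180). H2O2 replicate 1 nonetheless lay above control replicate 2, so the 2 groups overlapped across the sets. Fanci followed the same order, from 14.9 to 6.39 CPM in set A and from 5.26 and 7.74 to 2.46 CPM in set B (2.46-fold lower, log2 -1.30 ± 0.21, adjusted p = 0.0238). Brip1 went from 20.7 to 9.28 CPM and from 7.13 and 13.3 to 4.02 CPM (2.37-fold lower, log2 -1.25 ± 0.27, adjusted p = 0.0393).

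The genes of the core ligase complex that modifies this pair were not called. Fancb, an X-linked and scarce member, stood at -1.02 ± 0.28 (adjusted p = 0.0697), Fanca at -0.48 ± 0.13 (adjusted p = 0.0708) and Fancg at -0.29 ± 0.11 (adjusted p = 0.145). In each of these 3 both H2O2 libraries were nonetheless below all controls. Fancm, which anchors the complex to DNA, stood at -0.49 ± 0.17 (adjusted p = 0.124).

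None of the 4 end-joining genes was called by edgeR, and none had an unadjusted p under 0.05 with or without the set term. Prkdc, the catalytic kinase that Ku recruits, stood at 46.8 and 47.1 CPM in control and H2O2 of set A, and at 42.4, 45.9 and 44.0 CPM in control replicates 2 and 3 and H2O2 replicate 2. H2O2 replicate 1 was marginally the highest library and H2O2 replicate 2 lay among the controls, with a log2 change of -0.00047 ± 0.077. Lig4, the ligase of the pathway, ran at 9.13, 8.94 and 8.78 CPM in controls and 9.40 and 9.72 CPM in H2O2 (log2 0.09 ± 0.13). Both H2O2 libraries were above every control, but the fitted change was smaller than its standard error. Xrcc6, which encodes Ku70, ran at 16.8, 16.9 and 20.2 CPM in controls and 14.3 and 14.7 CPM in H2O2 (log2 -0.29 ± 0.13, adjusted p = 0.188). Its groups did not overlap, but the difference was not called.

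Xrcc5 encodes Ku80, the other subunit of the ring that grips broken ends, and its transcript was scarcely counted. Its level was 0.814, 0.423 and 0.671 CPM in controls and 1.30 and 0.518 CPM in H2O2, or between 7 and 22 counts a library. Per kilobase of annotated exon, its mean control level was 0.249 CPM, against 4.02 CPM for Xrcc6. The annotation behind the counts is not given in the sources used here, so a low count need not mean a low transcript level. No change in Xrcc5 was detectable at this depth (log2 0.34 ± 0.40).

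Of the 9 checkpoint genes 3 fell and none rose (median log2 change -0.27), where 4.61% of all tested genes were called lower. The kinases that start the signal were not among the 3. Atm, the kinase for breaks, stood at 49.3, 41.2 and 43.8 CPM in controls and 49.1 and 45.3 CPM in H2O2 (log2 0.05 ± 0.077), and both H2O2 libraries lay within the range of the controls. Atr, the kinase for single-stranded DNA, stood at 41.4, 39.2 and 39.9 CPM in controls and 32.4 and 36.5 CPM in H2O2 (log2 -0.22 ± 0.088, adjusted p = 0.164), below all controls but not called. Its partner Atrip stood at 0.09 ± 0.13. Chek2, the kinase that ATM activates, ran at 22.8, 21.6 and 22.7 CPM in controls and 22.3 and 20.4 CPM in H2O2 (log2 -0.08 ± 0.097). Chek1, the kinase that ATR activates, was lower but variable, at 10.4 CPM against 5.62 CPM in set A and at 3.75 and 6.89 CPM against 2.72 CPM in set B (log2 -0.92 ± 0.27, adjusted p = 0.0812).

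The called checkpoint genes work at the replication fork. Clspn encodes Claspin, which hands the signal from ATR to CHK1. It stood at 39.5 CPM in control replicate 1 but 18.4 CPM in H2O2 replicate 1, and at 11.5 and 20.9 CPM in control replicates 2 and 3 but 6.02 CPM in H2O2 replicate 2. The fall was 2.39-fold (log2 -1.25 ± 0.25, adjusted p = 0.0335), and control replicate 2 lay below H2O2 replicate 1. Timeless and Tipin encode 2 proteins that form a pair at the fork. Timeless fell 2.18-fold without overlap (log2 -1.12 ± 0.18, adjusted p = 0.0240), from 30.0 to 15.9 CPM and from 16.2 and 22.7 to 7.77 CPM. Tipin stood at -0.27 ± 0.13 (adjusted p = 0.234), from 21.3 to 16.3 CPM and from 12.9 and 15.5 to 12.6 CPM. Topbp1, which switches ATR on, was the most abundant of the 36 in CPM and fell 1.44-fold (log2 -0.52 ± 0.11, adjusted p = 0.0341), from 134.7 to 91.5 CPM in set A and from 83.7 and 105.1 to 67.0 CPM in set B.

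Levels of different genes can be set side by side only per length. In mean control CPM per kilobase of annotated exon, Nbn, Topbp1, Rad50, Tipin and Chek2 lay between 7.45 and 10.1 and Xrcc5 at 0.249. These 5 were the highest and Xrcc5 the lowest of the 36 in each of the 3 controls, but the order among the 5 changed from control to control. Of the 5 only Topbp1 was called. The exon length joins all isoforms of a gene, so genes with unused long exons read too low.

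The order of the libraries was much the same from gene to gene. Control replicate 1 was the highest of the 5 libraries in 26 of the 36 genes, and H2O2 replicate 2 the lowest in 25. Control replicate 3 lay above control replicate 2 in 33 of the 36. The size of a fall in set B therefore depends on the control it is read against: H2O2 replicate 2 held 73.2% of the summed recombination level of control replicate 2 but 61.4% of that of control replicate 3. For the Fanconi genes these shares were 66.7% and 49.2%, for the checkpoint genes 82.8% and 67.8%, and for the end-joining genes 95.3% and 85.0%. In set A they were 67.2%, 56.6%, 71.0% and 95.5%.

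Whether the change with H2O2 differed between the sets was tested by the interaction of set and treatment, with 1 residual degree of freedom. EdgeR called 0 of the 36, and 0 had an unadjusted p under 0.05 (smallest adjusted p = 0.511). Over all tested genes it called 2 (0.0164%), and 13.7% had an unadjusted p under 0.05. Among genes with a mean over 10 CPM the widest gaps were those of Brca2, with a log2 change of -1.03 (set A) against -0.40 (set B), and Timeless, with -0.91 against -1.29, but with so few libraries a missed threshold does not show that the sets respond alike. The control libraries of set A and set B are different libraries, so the 2 changes share no sample.

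**Figure D3:**
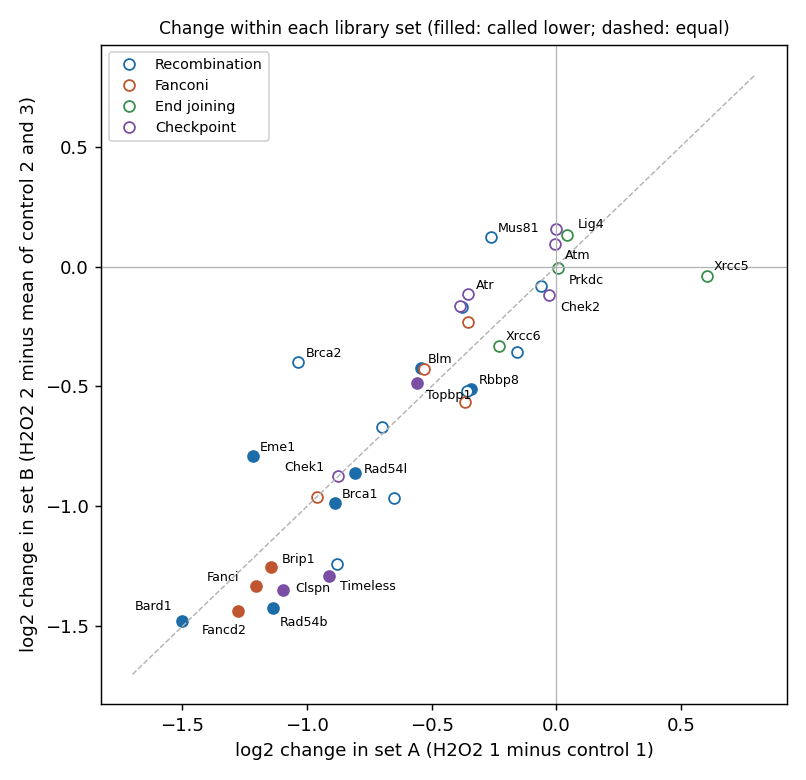
Log2 change of each of the 36 genes in set A (x axis, H2O2 replicate 1 minus control replicate 1) and in set B (y axis, H2O2 replicate 2 minus the mean of control replicates 2 and 3), coloured by role, with filled points for called genes and a dashed line of equal change. The medians over the 36 are -0.54 (set A) and -0.50 (set B), and Bard1 is lowest in both.

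A further 90 genes of the same pathways were listed by role, of which 89 were tested. EdgeR called 13 of them lower and 0 higher, where 4.61% of all tested genes were called lower and 3.93% higher. By role the calls were 8 of 37 for recombination and 5 of 21 tested for the checkpoint. There were 0 of 12 for Fanconi and 0 of 19 for end joining. At an unadjusted p under 0.05 there were 27 lower and 1 higher. Over all tested genes 14.1% were lower at that p, and 27.8% reached it in either direction. Rpa2, a subunit of the single-strand binding protein, fell 1.62-fold, and Dna2, a resection nuclease, fell 1.35-fold. Ticrr and Dtl, which act in origin firing and its limit to a single round, fell 2.45-fold and 2.22-fold, and Pkmyt1, a kinase that restrains mitosis, fell 2.58-fold. The gene with the highest mean CPM over all 5 libraries was not called in any role, with Wrn at log2 -0.08 ± 0.067, Wdr48 at -0.15 ± 0.067, Dclre1c at -0.27 ± 0.098 and Mdc1, the scaffold beside breaks, at -0.04 ± 0.081. In the controls alone Rpa1, a called gene, had a higher mean than Wrn (79.3 against 76.8 CPM).

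Cell cycle transcripts moved with the repair genes. Of 30 S-phase genes 16 fell and none rose (median log2 change -0.66), and of 25 mitosis genes all 25 fell (median -1.66). Among all tested genes 4.61% were called lower. Rrm2, a subunit of ribonucleotide reductase, fell 2.32-fold and Nusap1, a spindle protein, 3.89-fold. The summed S-phase level was 1552, 803.2 and 1088 CPM in control replicates 1, 2 and 3 and 1016 and 600.9 CPM in H2O2 replicates 1 and 2, the same order of libraries as for the summed recombination genes (393.0, 272.2 and 324.7 CPM, then 264.1 and 199.3 CPM) except that control replicate 2 lay below H2O2 replicate 1. The H2O2 libraries held 65.5% (set A) and 63.6% (set B, against the mean of its controls) of the summed S-phase level, and 67.2% and 66.8% of that of the recombination genes. Mitosis genes kept 31.3% and 35.9%. The part of cell cycling in the falls of the repair genes was not tested.

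Markers of other cells in the cultures were read beside these. Dendritic markers were present, with Itgax, the CD11c gene, at 1856 ± 348 CPM (n = 3) in controls and 1837 ± 481 CPM (n = 2) with H2O2, and summed to between 5902 and 8861 CPM. Of the 8 dendritic markers 5 fell and none rose, where 4.61% of all tested genes were called lower and 3.93% higher. Basophil and mast cell markers fell in 5 of 7 cases, and their sum was 33.4, 53.03 and 81.3 CPM in controls and 10.2 and 19.8 CPM with H2O2. Of the 8 neutrophil and progenitor markers 7 were tested, Mpo and Ctsg of early granulocytes fell and none rose. S100a8 and S100a9, which make up most of that list's level, stood at log2 0.94 ± 0.23 SE (adjusted p = 0.0534) and 0.09 ± 0.23 and were not called. That list summed to 68.6, 168.9 and 314.8 CPM in controls and 72.9 and 291.1 CPM with H2O2, Elane being at 0 in H2O2 replicate 1 and Ly6g in control replicate 1. Macrophage markers gave 1 higher and 2 lower of 7 tested, with sums of 1010, 854.7 and 835.8 CPM and then 1201 and 964.4 CPM. The 4 lymphoid markers summed to at most 1.29 CPM. What part these cells have in the repair transcripts was not tested.

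**Figure D4:**
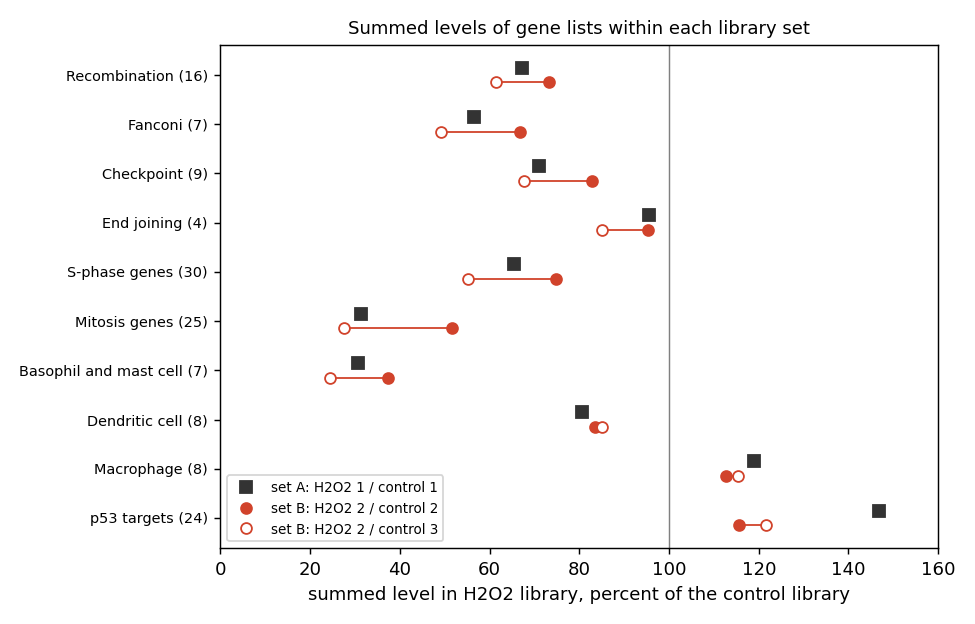
Summed level of each gene list in the H2O2 library as a percent of a control library of the same set (x axis), with the number of listed genes in brackets. Squares are set A, and filled and open circles are set B against control replicates 2 and 3. Recombination, Fanconi and checkpoint genes lie left of 100% beside S-phase genes, and end joining lies between 85.0% and 95.5%.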

How the data were processed

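The authors deposited raw estimated counts for each gene, per the file headers. Between 8.38% and 9.03% of the values were not whole. HISAT, Bowtie2 and GRCm38.p6 are listed in the submitters' processing notes. Counter, annotation and strand setting: not given in the sources used here, so overlapping genes and close relatives may share reads. Symbols came from RefSeq (GRCm38.p6), which matched 17520 of 17567 rows.

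Counts were rounded, filtered with filterByExpr (minimum count 10, total 15), scaled by TMM and fitted with edgeR 4.0.16 (R 4.3.3) with set and treatment terms (2 residual degrees of freedom). Set A held at least 100 counts over Ddx3y, Eif2s3y, Kdm5d and Uty. The standard error (SE) is the absolute log2 change over the root of F, and ± is SD elsewhere. CPM use TMM-adjusted totals, except list sums and Y-linked genes, which use plain totals. Changes within a set are differences of log2 CPM (prior count 2) with no test. An exact permutation test of 3 libraries against 2 cannot go below p = 0.1. With labels exchanged only within the sets, fewer arrangements exist and that limit is higher. Limma 3.58.1 and DESeq2 1.42.0 were alternatives. Exon lengths are unions from GENCODE.

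The genes, the other lists and the set term were chosen with earlier results of these data known. The code of the fit was run on simulated counts, and no result here rests on that run. The simulation drew independent libraries from the set means and spread of these data. It therefore cannot test the choice of the set term or the sharing of mice between libraries. Values are given in every library for called members and 8 end-joining and kinase genes, and others by value or range. Other pathway genes were named per role as the 3 called with lowest p, plus whichever was most abundant. One gene that this rule names is not reported here. Brca2 and Tipin are given by library and Mus81 and Rad50 by range as partners, a choice made after their values were seen. The same holds for naming Brca2 and Timeless in the comparison of the sets, Rrm2 and Nusap1 among cell cycle genes, Rpa1, and the neutrophil and progenitor markers.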

Additional observations from a re-analysis of the deposited data

How the results depend on the processing

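Of the 36 members 13 were called, and 0 without the set term or the low-count filter, 20 with H2O2 replicate 3 counted as a library, 8 with a log2 change of at least 1 and between 0 and 17 with each library left out. The other pathway genes gave 13, then 0, 0, 28, 7 and between 0 and 17, and 22 by library totals alone (edgeR, 12 at an unadjusted p under 0.05 without the set term, where 6.99% of all tested genes were, and 30 without the filter, where 20.8% were). All tested genes gave 1043, then 0 without the set term, 102 without the filter, 2820, 265 and between 1 and 2064, with 2002 in set B alone. Set B alone called 11 of the 36. Of the 13, 6 were called without H2O2 replicate 1, 10 without control replicate 1, 12 without control replicate 2, 7 without control replicate 3 and 0 without H2O2 replicate 2. All 13 kept a log2 change below 0 in every alternative fit run. That sign was largely fixed beforehand, since in all 13 H2O2 lay below every control of its own set. Leaving out either library of set A leaves the treatment to be read from set B alone. Without H2O2 replicate 2 it is read from set A, with 1 library a group.

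The replicate block, with the number given in order of deposit, called 10 of the 36 (9 of the 13), 12 other pathway genes and 554 genes in all (220 higher and 334 lower). Libraries with the same number share only a number. Their deviations from the group means correlated with r = 0.81 for replicate 1 and 0.714 for replicate 2, but control replicate 3 and H2O2 replicate 2, of different number and the same set, gave 0.66. With only 2 H2O2 libraries, their deviations are exact opposites, and control replicate 1 gave -0.81 with H2O2 replicate 2. These r are therefore tied to each other and cannot show which libraries belong together. Depth limits Xrcc5, Fancb and other scarce genes. The causes of these differences were not tested.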

Other observations

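Targets of p53, the factor that damage kinases stabilize, were read as a list of 24 genes in the same fit. EdgeR called 7 of them higher and 0 lower, with a median log2 change of 0.24 (0.47 in set A and 0.13 in set B). For comparison, 3.93% of all tested genes were called higher and 4.61% lower, and their median log2 change stood at 0.0089. The 7 calls rest on the set term, since edgeR without it called 0 of all tested genes. Phlda3, a brake on AKT signalling, rose 2.02-fold (25.9 ± 2.81 CPM in controls, n = 3, to 52.2 ± 5.81 CPM with H2O2, n = 2). Mdm2, which degrades p53, rose 1.72-fold. The p21 gene Cdkn1a, whose product arrests the cell cycle, stood at 0.26 ± 0.16 SE on the log2 scale and was not called, and neither were the nucleotide excision repair genes Xpc at 0.30 ± 0.12 and Ddb2 at -0.31 ± 0.16. The genes named from this list were chosen after their values were seen.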
